A study of Mus musculus with 40 samples.

Results

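The aortas of wild-type (WT) mice that had received the calcineurin (Cn) inhibitor cyclosporin A (CsA) for 5 days were compared with the aortas of untreated WT mice, with no angiotensin-II (Ang-II) in either group. The comparison rests on 6 of the 40 libraries of the series, the 3 labelled CsA basal and the 3 labelled WT basal, and on all 13738 protein-coding genes that could be tested. All the mice were C57BL/6J males, and every library pools 3 aortas. The drug was delivered by a subcutaneous osmotic minipump, and the WT mice carried no pump at that stage, so the drug cannot be told apart from the presence of a pump. The general methods describe control mice with the same surgery and no pump, and do not state this separately for these WT mice. By the methods, perivascular tissue and adventitia were pulled off with forceps, degraded RNA was discarded, and CsA mice whose thymus showed no inhibition of NFAT dephosphorylation were taken out. The hour of the day at which the tissue was taken is not given in the sources used here. The same genes were then followed in the other 12 libraries of the experiment, from WT and CsA mice after 2 h or 24 h of Ang-II by minipump (3 libraries per group, from mice chosen for raised systolic pressure), and beside untreated SM-Cn-/- mice. The SM-Cn-/- mice lost Ppp3r1 through a tamoxifen-inducible Cre driven by Myh11, and their Cn-Ctl controls received tamoxifen as well.

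Calcineurin is a calcium-dependent phosphatase made of a catalytic A subunit and a regulatory B subunit. CsA binds cyclophilins inside the cell, and this complex blocks access of substrates to the phosphatase. The best known substrates are the NFAT transcription factors, which enter the nucleus once dephosphorylated and which drive, among other genes, cytokine genes in T cells and the feedback inhibitor Rcan1. CsA is used against transplant rejection, and raised blood pressure and damage to vessels and kidney are known side effects.

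The comparison asked how the aortic transcriptome of CsA-pretreated mice differed from that of untreated mice before Ang-II was given. In the CsA aortas 1904 genes were higher, which is 13.9% of all genes tested, and 1560 were lower (11.4%), at an adjusted p under 0.05. The increases were larger than the decreases: 966 of the genes with an increase (7.03% of all tested) changed by more than 2-fold, against 60 of the genes with a decrease (0.437%). The values are the authors' normalized signal, which is close to the CPM scale (reads relative to library size), and fold changes are on the log2(signal + 0.5) scale with a model standard error after the ± sign, so that changes of low genes are understated. The first principal component of the 6 libraries carried 63.5% of their variance and separated the 3 CsA from the 3 WT libraries. The libraries held 22.3 M to 26.6 M assigned reads, and the 10 most abundant genes took 12.4% to 13.5% of the signal in WT and 16.6% to 20.1% in CsA. Leaving out 1 library left between 2039 genes past the threshold (without WT library 3) and 2872 (without CsA library 2), and all the genes that were called both with and without a library kept their direction. These fits share most libraries, so a change of direction was unlikely from the start. After quantile normalization, which makes the distribution of values equal in all libraries and moved the median of all genes to -0.11, 1546 genes were higher and 2341 lower, a share of 39.8% higher against 55.0% with the authors' scaling. Counts of lower genes are therefore to be read against that shift.

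Genes in this and the next paragraph were chosen among those past the threshold without overlap between the groups. With a mean of at least 5 in a group, 1618 higher and 1515 lower genes met this. Members of the lists below were mostly named by the smallest p, which favors groups that do not overlap. The lack of overlap in named genes is thus part of the choice. The genes with the largest increases belonged to a few families. Among the 15 largest were the interferon-inducible GTPases Gbp10, Tgtp1, Igtp, Gbp6, Tgtp2, and Iigp1, the acute-phase proteins Hp and Lcn2, the neutrophil protein S100a9, the chemokine Ccl8, the nucleic acid sensor Zbp1, the drug-metabolizing cytochrome Cyp2b10, the fatty acid elongase Elovl3, and the predicted genes Gm43302 and Gm4070. Haptoglobin (Hp), a scavenger of free hemoglobin, measured 93.7, 81.4, and 53.9 in WT and 507, 628, and 1384 in CsA. Every CsA library lay above every WT library, and CsA library 3 was the highest (log2 fold change 3.35 ± 0.46, adjusted p = 0.00054). Zbp1, which senses Z-form nucleic acids, measured 0.966, 0.806, and 0.912 in WT and 6.98, 18.8, and 16.3 in CsA (log2 fold change 3.27 ± 0.38, adjusted p = 0.00038). Ccl8, a chemokine for monocytes, measured 0.138, 0.281, and 0.142 in WT and 2.41, 9.68, and 8.87 in CsA (log2 fold change 3.25 ± 0.41, adjusted p = 0.00054). CsA library 1 was the lowest of the CsA libraries for both genes and remained above all the WT libraries. S100a9 measured 0.0591, 0.0562, and 0.0203 in WT and 4.41, 3.85, and 10.95 in CsA, where the WT values correspond to about a read or none per library, so no fold is given. Gm43302 had an adjusted p of 0.067 without WT library 2 and 0.0501 without CsA library 3, 0.070 in edgeR, and 0.22 in DESeq2, and its reads and those of Gbp10 and Gbp6 come from overlapping or near-identical genes.

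The decreases were smaller and more even between libraries. The genes that fell most included Casq1, a calcium-binding protein of the sarcoplasmic reticulum, the transcription factors Npas4 and Scx, the matrix proteins Tnc, Postn, and Optc, the guidance cue Sema3a, the Wnt inhibitor Wif1, and Gpsm2, which orients the mitotic spindle. Gpsm2 measured 92.6, 112, and 120.1 in WT and 46.5, 35.9, and 41.2 in CsA (log2 fold change -1.38 ± 0.16, adjusted p = 0.00038). Periostin (Postn), a matrix protein of remodelled vessels, measured 1978, 2053, and 2039 in WT and 874, 881, and 844 in CsA (log2 fold change -1.22 ± 0.23, adjusted p = 0.0022). The 3 CsA libraries were close together for both genes, below every WT library. Scleraxis (Scx), the transcription factor of tendon and other collagen-rich tissue, measured 11.1, 9.57, and 13.6 in WT and 4.06, 4.87, and 4.02 in CsA (log2 fold change -1.30 ± 0.20, adjusted p = 0.00092). Optc, a small proteoglycan, measured 75.6, 84.1, and 76.9 in WT and 34.5, 33.0, and 35.9 in CsA (log2 fold change -1.18 ± 0.15, adjusted p = 0.00054). Filip1l, which binds filamin, measured 482, 584, and 574 in WT and 266, 204, and 234 in CsA (log2 fold change -1.22 ± 0.19, adjusted p = 0.00084). As the choice of genes required, the groups did not overlap for these genes either.

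**Figure D1:**
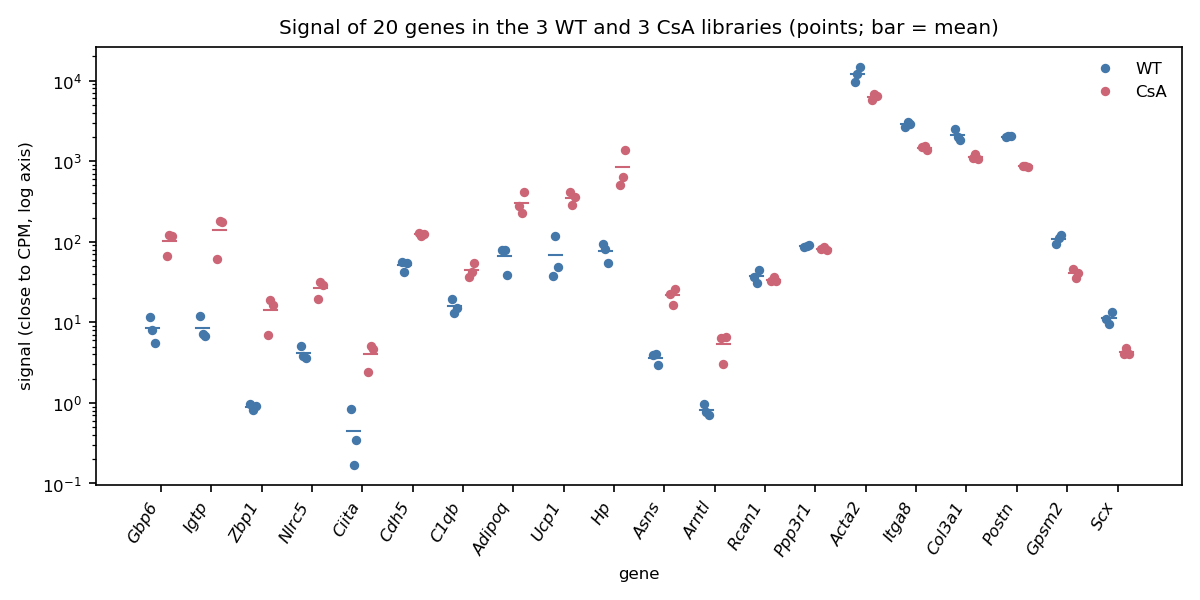
Signal (close to CPM, log axis) of 20 genes in each of the 3 WT and 3 CsA libraries, with the group mean as a bar. Gbp6, Igtp, and Hp lie far above WT in all 3 CsA libraries, Rcan1 overlaps between the groups, and Postn, Gpsm2, and Scx lie below WT with little spread.

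The drug target itself changed little at the RNA level. Of the 20 measured genes of the list of Cn subunits, regulators, and NFAT factors, 3 were higher and 3 lower, shares close to those over all genes tested, and the list's median log2 fold change was -0.13 beside -0.02 for all genes. The B subunit gene Ppp3r1 (chr11:17159263-17200375, plus strand) measured 85.8, 89.0, and 90.0 in WT and 80.3, 87.2, and 78.3 in CsA, with a log2 fold change of -0.11 ± 0.10 that did not pass the test (adjusted p = 0.46). The catalytic subunit genes gave 0.22 ± 0.10 (Ppp3ca), -0.19 ± 0.09 (Ppp3cb), and 0.05 ± 0.12 (Ppp3cc), and the adjusted p was 0.11, 0.12, and 0.81. Rcan1, the feedback inhibitor that Cn and NFAT induce, measured 36.9, 30.7, and 45.2 in WT and 32.3, 36.5, and 32.4 in CsA, and the groups overlapped (log2 fold change -0.14 ± 0.21, adjusted p = 0.66). Its direction is not settled in these libraries, since its log2 fold change was 0.00 without WT library 3, which reads as 0. With Ang-II the same gene was lower in CsA than in WT, by -1.16 at 2 h (adjusted p = 0.018) and -1.41 at 24 h (adjusted p = 0.0033). The difference between the 24 h effect and the effect without Ang-II passed the test (-1.28, adjusted p = 0.017), and the one for 2 h did not (adjusted p = 0.16).

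The members of this list that rose were Akap1, which anchors kinases and Cn at the outer mitochondrial membrane, Chp1, a Cn-like calcium-binding protein, and Nfatc2. Akap1 measured 43.8, 50.2, and 48.4 in WT and 103, 72.7, and 99.7 in CsA (log2 fold change 0.93 ± 0.22, adjusted p = 0.0074), and Chp1 measured 134, 140.2, and 134 in WT and 192, 175, and 212 in CsA (log2 fold change 0.50 ± 0.12, adjusted p = 0.0085). The groups did not overlap for either. Nfatc2 was low in WT and measured 3.21, 3.02, and 4.28 in WT and 5.68, 6.05, and 5.91 in CsA (log2 fold change 0.69 ± 0.15, adjusted p = 0.0044), and it did not pass after quantile normalization (adjusted p = 0.12). Of the members that fell, Cabin1, an inhibitor of Cn, gave -0.37 ± 0.11 and Nfatc4 gave -0.29 ± 0.09 (adjusted p = 0.023 and 0.030), and without WT library 3 or without CsA library 1 no member of the list was lower at the threshold.

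The cyclophilins and the FK506-binding proteins, the 2 families of prolyl isomerases that bind immunosuppressants, were called in shares near those over all genes. Of 28 measured, 3 were higher and 5 lower (10.7% and 17.9%, beside 13.9% and 11.4% over all genes tested), with a median of -0.17. Cyclophilin A (Ppia), the main intracellular receptor of CsA, measured 529.8, 619.9, and 528 in WT and 440.4, 513, and 533 in CsA and did not pass (adjusted p = 0.22). Ppif, the cyclophilin of the mitochondrial matrix, measured 9.72, 9.42, and 8.70 in WT and 19.2, 18.7, and 18.7 in CsA (log2 fold change 0.99 ± 0.24, adjusted p = 0.0086). Fkbp5, a cochaperone of the glucocorticoid receptor and a classical target of it, measured 61.3, 64.9, and 84.7 in WT and 135, 140.0, and 129 in CsA (log2 fold change 0.95 ± 0.20, adjusted p = 0.0042). Both lay above WT in every CsA library. Of the isomerases of the endoplasmic reticulum, Fkbp2 rose (0.52 ± 0.12, adjusted p = 0.0060) and those known as collagen chaperones or their relatives fell, with Fkbp10 at -0.75 ± 0.13, Fkbp14 at -0.50 ± 0.11, and Fkbp9 at -0.40 ± 0.08 on the log2 scale (adjusted p = 0.0016, 0.0044, and 0.0038).

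The cell types of the wall were read from their markers. All 7 smooth muscle markers were lower, and their summed signal was 26931 to 36953 in WT and 17273 to 19367 in CsA. All 10 endothelial markers were higher, with sums of 530.2 to 842 and 1304 to 1492. Of 12 markers of macrophages and monocytes 11 were higher (138 to 196 against 366 to 436), and of 7 adipocyte markers 6 were higher (359.5 to 688 against 2384 to 4279). The smooth muscle markers were present at high levels in all 6 libraries, as the label aorta requires, and the defining genes of T cells and B cells were near 0. In pooled tissue, fewer cells of a type and less RNA per cell cannot be told apart, and this holds for every result below. Cdh5, the cadherin of endothelial junctions, measured 56.8, 42.3, and 55.2 in WT and 129, 119, and 125 in CsA (log2 fold change 1.27 ± 0.19, adjusted p = 0.00078), and Kdr, the main VEGF receptor, measured 24.1, 23.7, and 26.9 in WT and 80.6, 76.2, and 84.8 in CsA (log2 fold change 1.68 ± 0.32, adjusted p = 0.0022). Adgre1, the macrophage antigen F4/80, measured 4.79, 3.24, and 3.83 in WT and 9.26, 12.04, and 12.1 in CsA (log2 fold change 1.39 ± 0.25, adjusted p = 0.0017), and Mrc1, the mannose receptor of resident macrophages, measured 18.7, 14.5, and 15.9 in WT and 31.2, 33.8, and 33.9 in CsA (log2 fold change 1.00 ± 0.17, adjusted p = 0.0013). None of these markers overlapped between the groups. Without WT library 3, 3 of the 7 smooth muscle markers were lower at the threshold, and without CsA library 3 there were 4. The count for macrophages was 7 without WT library 2, WT library 3, or CsA library 3.

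Other cell types were near the floor or uneven. Of the 6 neutrophil markers measured, 3 were higher (50%, beside 13.9% over all genes tested). The sums were 1.58 to 2.25 in WT and 12.6 to 32.2 in CsA. The 4 T and NK cell markers measured summed to 1.54 to 3.37 and 2.19 to 4.20, the B cell marker Cd79a to 0.304 to 1.163 and 0.289 to 0.428, and none of these passed in limma, edgeR, or DESeq2, nor had an unadjusted p under 0.05. Of 10 markers of adventitial fibroblasts 2 were higher (20%, beside 13.9% over all genes tested), and the sums overlapped (1241 to 2057 against 1844 to 2168). Among them, Ly6a, which encodes the surface antigen Sca-1 and is also induced by interferon, measured 70.9, 47.3, and 56.8 in WT and 181, 307, and 216 in CsA (log2 fold change 1.98 ± 0.26, adjusted p = 0.00054). Markers of heart and skeletal muscle summed to 77.7 to 456 in WT and 201 to 1759 in CsA, where CsA libraries 1 and 2 were the high ones and CsA library 3 lay within the WT range. Mesothelial markers summed to 21.9 to 31.3 and 40.0 to 155, highest in CsA library 3. None of the 5 passed in limma or edgeR, 2 did in DESeq2, and 3 had an unadjusted p under 0.05 in limma. The part of other cell types in the results below was not tested.

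**Figure D2:**
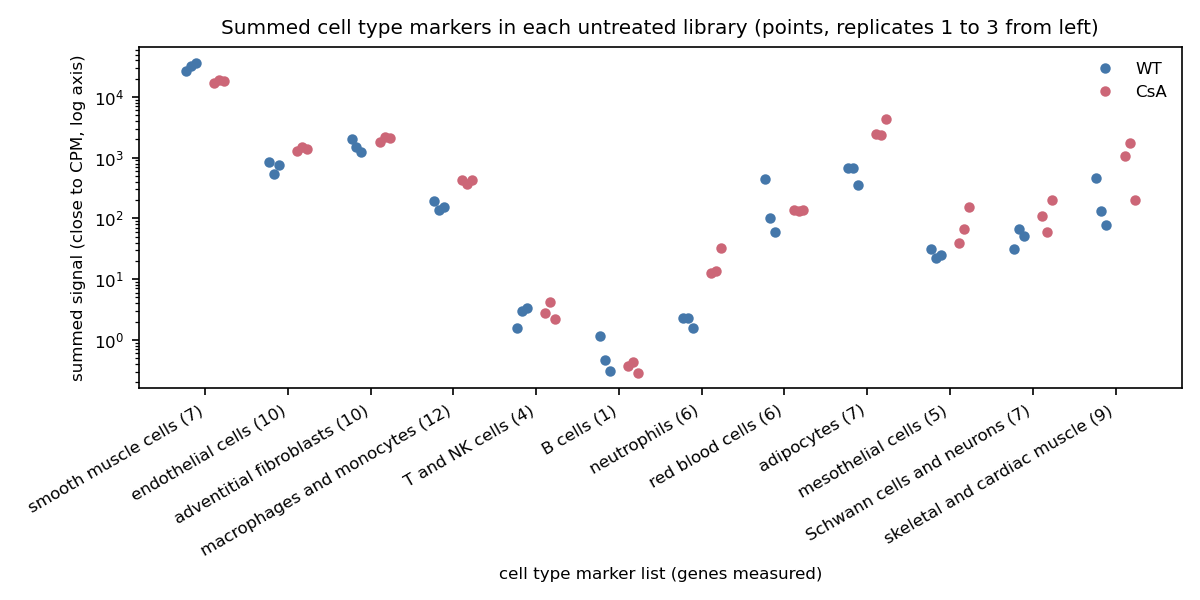
Summed signal (close to CPM, log axis) of the measured markers of 12 cell types in each untreated library, in the order of the replicate numbers. Smooth muscle markers are lower and endothelial, macrophage, neutrophil, and adipocyte markers are higher in every CsA library, and the sums for fibroblasts, T and NK cells, B cells, red blood cells, Schwann cells and neurons, and striated muscle overlap.

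The interferon-inducible GTPases had the largest median change of the lists. These proteins, the guanylate-binding proteins (Gbp) and the immunity-related GTPases (Irgm, Igtp, Iigp, Tgtp), coat and break down the vacuoles of intracellular pathogens, and interferon-gamma induces them. The factors that interferons activate bind the GAS element and the interferon-stimulated response element (ISRE). Of 21 members measured, 20 were higher and none was lower, with a median log2 fold change of 2.59. The promoters of the 6 members with the smallest p among those in the RefSeq promoter table (GRCm38.p6) show the letters of these elements. The capitals mark an ISRE core (GAAANNGAA) or a GAS (TTCNNNGAA) on either strand, in windows from 250 bases before to 50 bases after the annotated start.
Irgm2 (chr11:58214727-58215026, plus strand): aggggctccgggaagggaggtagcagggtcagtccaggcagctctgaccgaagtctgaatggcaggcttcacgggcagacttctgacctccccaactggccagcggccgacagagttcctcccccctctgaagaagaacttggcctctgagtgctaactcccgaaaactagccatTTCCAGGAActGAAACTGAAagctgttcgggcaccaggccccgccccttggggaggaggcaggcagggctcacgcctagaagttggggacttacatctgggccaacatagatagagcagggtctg
Ifi47 (chr11:49076337-49076636, plus strand): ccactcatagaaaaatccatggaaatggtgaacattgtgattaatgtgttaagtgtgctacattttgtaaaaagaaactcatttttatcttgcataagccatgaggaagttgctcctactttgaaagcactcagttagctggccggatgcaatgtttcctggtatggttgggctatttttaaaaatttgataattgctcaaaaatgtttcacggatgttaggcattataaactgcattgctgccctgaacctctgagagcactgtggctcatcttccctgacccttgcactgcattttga
Igtp (chr11:58199306-58199605, plus strand): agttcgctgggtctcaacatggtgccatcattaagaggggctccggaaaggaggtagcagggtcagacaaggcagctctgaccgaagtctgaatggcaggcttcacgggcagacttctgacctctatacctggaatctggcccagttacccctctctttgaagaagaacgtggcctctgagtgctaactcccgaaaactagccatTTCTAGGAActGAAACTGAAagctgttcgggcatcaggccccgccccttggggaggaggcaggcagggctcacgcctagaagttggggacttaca
Gbp7 (chr3:142530086-142530385, plus strand): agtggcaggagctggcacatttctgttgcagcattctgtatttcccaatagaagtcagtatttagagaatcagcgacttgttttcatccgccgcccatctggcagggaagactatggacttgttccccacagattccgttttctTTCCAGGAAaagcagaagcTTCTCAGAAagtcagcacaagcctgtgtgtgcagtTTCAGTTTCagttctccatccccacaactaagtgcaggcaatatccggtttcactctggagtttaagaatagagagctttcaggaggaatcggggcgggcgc
Irgm1 (chr11:48871371-48871670, minus strand): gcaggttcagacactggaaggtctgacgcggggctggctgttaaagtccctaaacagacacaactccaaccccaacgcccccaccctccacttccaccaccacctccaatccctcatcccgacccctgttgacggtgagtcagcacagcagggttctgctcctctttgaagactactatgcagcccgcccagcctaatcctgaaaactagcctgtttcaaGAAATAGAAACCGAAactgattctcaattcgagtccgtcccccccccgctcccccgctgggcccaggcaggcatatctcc
Gbp2 (chr3:142620413-142620712, plus strand): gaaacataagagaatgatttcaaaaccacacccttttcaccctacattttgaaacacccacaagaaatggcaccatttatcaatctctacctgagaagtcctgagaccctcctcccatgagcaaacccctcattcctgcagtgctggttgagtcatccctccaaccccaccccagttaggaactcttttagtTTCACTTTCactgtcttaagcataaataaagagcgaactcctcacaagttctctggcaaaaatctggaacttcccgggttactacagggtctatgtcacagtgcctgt

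In Irgm2 and Igtp a GAS stands just before an ISRE core in the same stretch of sequence, centred 60 bases before the start in Irgm2 and 30 bases before it in Igtp for the ISRE core. Gbp7 holds 2 GAS matches and an ISRE core on the other strand, Irgm1 holds 2 overlapping ISRE cores, and Gbp2 holds an ISRE core, also on the other strand, 54 bases before its start. The Ifi47 window holds neither. In all, 12 of the 21 members had a promoter in the table, 10 of them with an ISRE core and 6 with a GAS, and 2 genes had neither. Over the 13 promoters of these 12 genes 76.9% held an ISRE core and 46.2% a GAS, where 8.56% and 8.3% of all 32851 promoters in the table did. The NFAT core (GGAAAA) stood in 23.1% of the 13 and 23.4% of all. A match is a description of the letters and not a bound site.

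In all 21 GTPases measured, every CsA library lay above every WT library. Such separation was common. Of 13738 genes tested, 1618 with a mean of at least 5 in a group were called higher without overlap. The list itself was chosen with earlier results of these data known. Igtp (chr11:58199556-58207591, plus strand) measured 11.8, 7.18, and 6.83 in WT and 61.4, 182, and 174 in CsA, a 14.2-fold difference on the fitted scale (log2 fold change 3.82 ± 0.56, adjusted p = 0.00067). Gbp6 measured 11.6, 8.11, and 5.62 in WT and 67.2, 121, and 119 in CsA (log2 fold change 3.53 ± 0.43, adjusted p = 0.00053). Irgm2 measured 16.4, 10.2, and 12.5 in WT and 56.1, 125, and 111 in CsA (log2 fold change 2.80 ± 0.38, adjusted p = 0.00054). In these genes CsA library 1 was lowest of the 3 CsA libraries, yet still well above the highest WT library. That order held for 19 of the 21 members, and WT library 1 was the highest WT library for 17 of them. Iigp1, which acts on the vacuole of Toxoplasma, measured 22.7, 12.7, and 17.2 in WT and 86.3, 229, and 245 in CsA (log2 fold change 3.27 ± 0.52, adjusted p = 0.00097). Ifi47 measured 4.12, 2.15, and 2.29 in WT and 12.4, 42.3, and 29.0 in CsA (log2 fold change 2.97 ± 0.41, adjusted p = 0.00054). Gvin1, a very large inducible GTPase, measured 25.2, 18.6, and 13.7 in WT and 104, 170.0, and 105 in CsA (log2 fold change 2.69 ± 0.36, adjusted p = 0.00054). The spread between CsA libraries was wider than between WT libraries in this family. Tgtp1 and Tgtp2, near-identical neighbors among which reads may have been split, measured 3.17, 1.67, and 2.01 in WT and 26.2, 72.8, and 56.5 in CsA and 6.37, 4.14, and 5.78 in WT and 36.5, 101, and 50.8 in CsA respectively. The member that did not pass was 9930111J21Rik1, at 0.56 ± 0.22. The number of members called stayed between 17 and 20 in the alternatives, with medians of 2.40 to 2.93.

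The other interferon-stimulated genes followed at a smaller size. Of 41 measured, 35 were higher and none was lower (median 1.53), and CsA library 1 was the lowest CsA library for 38 of them. Irf7, which amplifies type I interferon, measured 5.73, 4.37, and 7.28 in WT and 19.5, 67.2, and 59.2 in CsA (log2 fold change 2.81 ± 0.39, adjusted p = 0.00054). All 3 CsA libraries were above WT. Irf1, a transcription factor that interferon-gamma induces, gave 1.50 ± 0.31 and Irf8 gave 1.70 ± 0.34. Antiviral effectors rose as well. Rsad2 (viperin) measured 4.51, 4.10, and 5.49 in WT and 14.7, 31.6, and 28.1 in CsA (log2 fold change 2.22 ± 0.36, adjusted p = 0.0011), Bst2 (tetherin) 18.2, 14.5, and 15.2 in WT and 39.1, 86.0, and 57.1 in CsA (log2 fold change 1.83 ± 0.26, adjusted p = 0.00061), and Oas2, which makes the activator of RNase L, had a log2 fold change of 2.40 ± 0.46 (adjusted p = 0.0023). The chemokine Cxcl9, induced by interferon-gamma, gave 2.20 ± 0.45 (adjusted p = 0.0032), while Cxcl10 at 1.36 ± 0.56 did not pass (adjusted p = 0.087) and its groups overlapped. Ifit2 and Samd9l were also among the members that did not pass, at 0.51 ± 0.21 and 0.28 ± 0.12.

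The receptors of interferon, looked up after the values of their targets had been seen, moved in different directions. Ifngr1, the ligand-binding chain for interferon-gamma, gave 0.50 ± 0.13 (adjusted p = 0.013) and Ifnar2, a chain of the type I receptor, gave 0.49 ± 0.13 (adjusted p = 0.015). Without WT library 2, WT library 3, or CsA library 3 these p-values rose to 0.055, 0.052, and 0.066 for Ifngr1 and 0.056, 0.062, and 0.060 for Ifnar2. Ifngr2, the partner of Ifngr1, measured 60.6, 56.7, and 54.8 in WT and 36.0, 36.7, and 37.2 in CsA, below WT in every CsA library (log2 fold change -0.64 ± 0.09, adjusted p = 0.00073). Jak3, the kinase of lymphocyte cytokine receptors, measured 9.12, 7.06, and 8.62 in WT and 31.2, 24.0, and 34.2 in CsA (log2 fold change 1.78 ± 0.28, adjusted p = 0.00088).

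Antigen presentation rose with the interferon genes. Of 20 measured genes of MHC class I presentation 19 were higher and none lower (median 1.24), and of 8 genes of class II presentation 7 were higher and none lower (median 1.38). The master regulator of each class was among them. Nlrc5, the transactivator of class I genes, measured 5.03, 3.84, and 3.59 in WT and 19.4, 31.4, and 28.9 in CsA (log2 fold change 2.52 ± 0.29, adjusted p = 0.00038). Ciita, the transactivator of class II genes, measured 0.847, 0.169, and 0.345 in WT and 2.41, 5.07, and 4.64 in CsA (log2 fold change 2.26 ± 0.35, adjusted p = 0.00088). Both were again lowest in CsA library 1 among the CsA libraries. The peptide machinery of class I included the immunoproteasome subunit Psmb8, at 10.9, 6.54, and 5.82 in WT and 24.3, 70.6, and 62.0 in CsA (log2 fold change 2.59 ± 0.37, adjusted p = 0.00061), and the peptide transporter Tap1, at 13.3, 8.22, and 9.06 in WT and 28.0, 68.3, and 64.2 in CsA (log2 fold change 2.26 ± 0.36, adjusted p = 0.0010). The light chain B2m measured 298, 261, and 276 in WT and 393, 609, and 678 in CsA (log2 fold change 0.97 ± 0.19, adjusted p = 0.0025). The groups did not overlap in any of these genes. Of class II, H2-Ab1 measured 24.4, 10.8, and 12.6 in WT and 33.6, 55.8, and 44.3 in CsA (log2 fold change 1.52 ± 0.33, adjusted p = 0.0044) and the invariant chain Cd74 70.3, 34.1, and 46.0 in WT and 95.2, 163, and 119 in CsA (log2 fold change 1.34 ± 0.30, adjusted p = 0.0052). Ctss, the protease that trims the invariant chain, measured 6.72, 4.33, and 6.22 in WT and 13.9, 24.1, and 22.7 in CsA (log2 fold change 1.71 ± 0.29, adjusted p = 0.0013). Class II genes are, among others, those of macrophages and dendritic cells, and the macrophage markers above were higher too, at a median of 1.23. Their order among the CsA libraries was alike only in part. CsA library 1 was lowest for 10 of the 12 macrophage markers. CsA library 3 was highest for 11 of these, where CsA library 2 was highest for 6 of the 8 class II genes. The part of macrophages in the class II result was not tested. CsA library 1 was the lowest CsA library for 20 of the 20 class I genes and 8 of the 8 class II genes. H2 genes resemble each other, so reads may have been split among them.

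**Figure D3:**
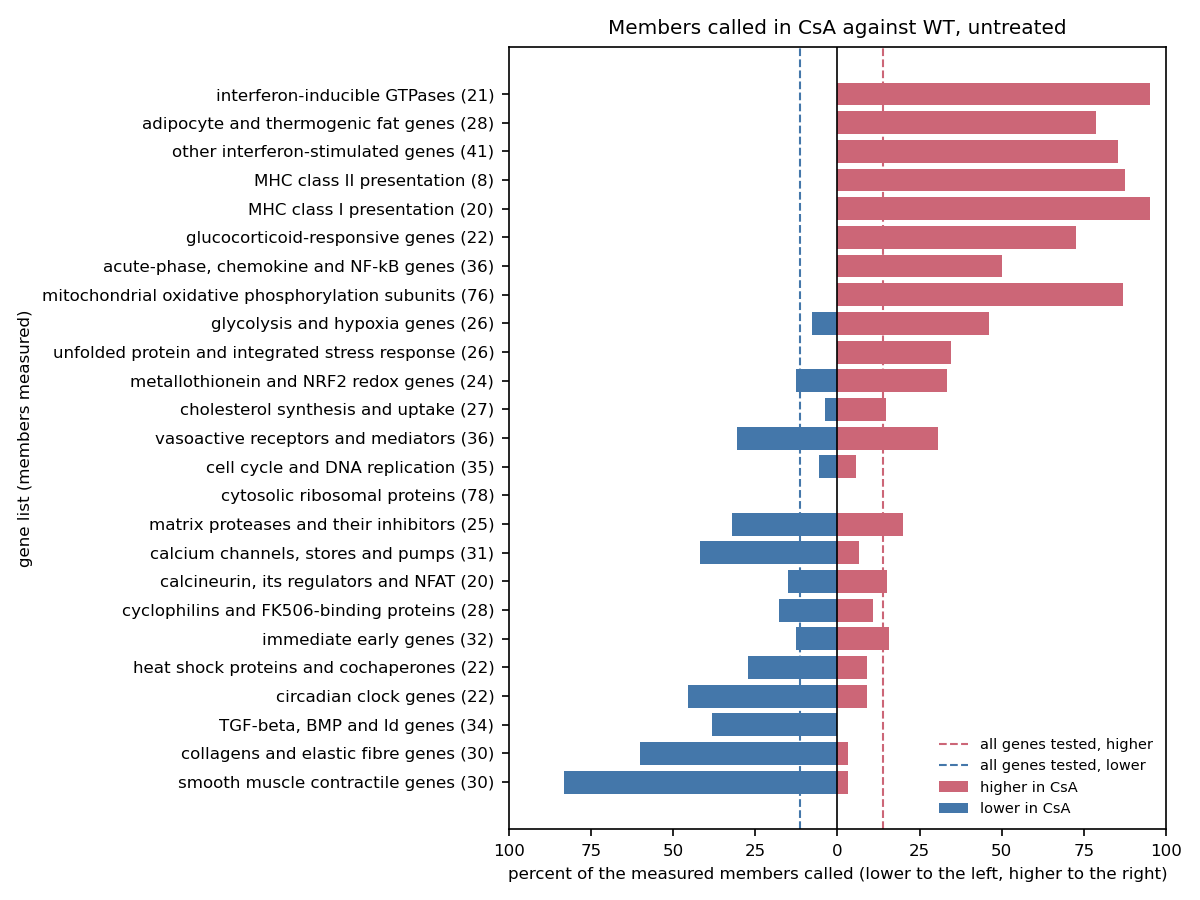
Percent of the measured members of each gene list that were higher (right) or lower (left) in CsA than in WT without Ang-II, at an adjusted p under 0.05, with the share over all genes tested as dashed lines (13.9% higher, 11.4% lower). Interferon, MHC, fat, and oxidative phosphorylation lists lie far to the right, contractile and collagen lists to the left, and no cytosolic ribosomal protein passed.

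Adipocyte and thermogenic fat genes were higher in most members. Of 28 measured, 22 were higher and none lower (median 1.94). Ucp1, the uncoupling protein of brown fat, measured 37.8, 119, and 48.8 in WT and 410.1, 282, and 355 in CsA (log2 fold change 2.50 ± 0.62, adjusted p = 0.0087). Adiponectin (Adipoq), the main hormone of fat cells, measured 79.6, 79.0, and 38.5 in WT and 276, 227, and 413 in CsA (log2 fold change 2.24 ± 0.40, adjusted p = 0.0018). Cidec, which enlarges lipid droplets, measured 82.7, 76.5, and 41.2 in WT and 328, 232, and 471 in CsA (log2 fold change 2.36 ± 0.39, adjusted p = 0.0012). Elovl3, an elongase of brown fat, measured 0.729, 0.993, and 0.264 in WT and 9.51, 16.5, and 11.2 in CsA (log2 fold change 3.49 ± 0.66, adjusted p = 0.0023). The CsA libraries were above WT for all of these, and WT library 3 was the lowest WT library for 26 of the 28 members. Triglyceride lipase (Pnpla2) measured 219, 241, and 204 in WT and 809, 524, and 924 in CsA (log2 fold change 1.73 ± 0.31, adjusted p = 0.0018), and the fatty acid carrier Fabp4 measured 509.8, 594, and 316 in WT and 1805, 1529, and 2196 in CsA (log2 fold change 1.99 ± 0.36, adjusted p = 0.0018). The lipogenic genes separated the groups less. Fasn, the fatty acid synthase, at 0.61 ± 0.45 and Scd1, the main desaturase, at 0.71 ± 0.48 did not pass (adjusted p = 0.34 and 0.29), with overlapping groups. Adipocyte markers are part of this list and were present in every WT library too, so that the amount of perivascular fat left on the vessel cannot be told apart from a change within cells.

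Mitochondrial genes rose over a wide front. Of 76 nuclear subunits of oxidative phosphorylation 66 were higher and none lower, and the median was 0.73. The count was between 46 and 67 in the alternatives. Atp5b, the catalytic subunit of ATP synthase, measured 512, 582, and 498 in WT and 1282, 1046, and 1261 in CsA (log2 fold change 1.17 ± 0.20, adjusted p = 0.0013). Uqcrfs1, the Rieske protein of complex III, measured 63.0, 73.7, and 54.4 in WT and 180.4, 154, and 178 in CsA (log2 fold change 1.42 ± 0.25, adjusted p = 0.0015). Ndufs3 of complex I measured 52.4, 61.0, and 46.8 in WT and 98.2, 96.7, and 110.2 in CsA (log2 fold change 0.93 ± 0.17, adjusted p = 0.0017). All the CsA libraries were above all the WT libraries. The 15 listed genes encoded by the mitochondrial genome took 8.42% to 9.11% of the signal in WT and 13.1% to 16.4% in CsA. Fat, brown fat above all, and heart muscle are rich in mitochondria, and the adipocyte markers, and in CsA libraries 1 and 2 the cardiac markers, were higher too. Sums of adipocyte markers were 359.5 to 688 in WT and 2384 to 4279 in CsA, and their part in the mitochondrial result was not tested. Of the cytosolic ribosomal proteins, none of 78 passed in limma or edgeR, 2 did in DESeq2, 3 had an unadjusted p under 0.05 in limma, and the median was 0.01.

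The contractile program of smooth muscle was lower. Of 30 contractile genes 25 fell and 1 passed in the other direction (median -0.68). Itga8, the integrin chain of the smooth muscle surface, measured 2646, 3079, and 2916 in WT and 1490.1, 1535, and 1388 in CsA (log2 fold change -0.97 ± 0.21, adjusted p = 0.0044). Calponin (Cnn1), an actin-binding regulator of contraction, measured 1260.5, 1527, and 1791 in WT and 832, 836, and 884 in CsA (log2 fold change -0.83 ± 0.18, adjusted p = 0.0039). Ppp1r12b, a targeting subunit of myosin phosphatase, measured 867, 994, and 1132 in WT and 558, 569, and 482 in CsA (log2 fold change -0.89 ± 0.17, adjusted p = 0.0023). Each CsA library was below each WT library, and within WT library 1 was the lowest for 27 of the 30 genes and library 3 the highest for 25. Kcnmb1, the beta subunit of the calcium-activated potassium channel, measured 211, 244, and 263 in WT and 126, 132, and 132 in CsA (log2 fold change -0.87 ± 0.14, adjusted p = 0.0010), and smoothelin (Smtn) measured 1591, 1639, and 1993 in WT and 1025, 1105, and 978 in CsA (log2 fold change -0.74 ± 0.15, adjusted p = 0.0028). Alpha-smooth muscle actin (Acta2), the actin of the contractile filaments, measured 9673, 12206, and 14795 in WT and 5679, 6748, and 6480.1 in CsA (log2 fold change -0.94 ± 0.27, adjusted p = 0.021). For Acta2 the adjusted p was 0.062 to 0.089 when WT library 2, WT library 3, CsA library 1, or CsA library 3 was left out, and for Myh11, the smooth muscle myosin heavy chain (log2 fold change -0.77 ± 0.21, adjusted p = 0.015), it was 0.063 without WT library 3 and 0.055 without CsA library 3. Without WT library 3 the count of lower members was 10, and without CsA library 3 it was 15. Des at 0.34 ± 0.24 did not pass.

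Genes of the fibrous matrix fell with the contractile genes. Of 30 collagens and elastic fiber genes 18 were lower and 1, Fbln2, was higher (median -0.55). Fbln2 gave 0.67 ± 0.19, with an adjusted p of 0.098, 0.084, and 0.081 without WT library 2, WT library 3, and CsA library 3. Col3a1, the chain of the fine fibrils of vessel walls, measured 2521, 1973, and 1829.7 in WT and 1085, 1227, and 1050.4 in CsA (log2 fold change -0.90 ± 0.16, adjusted p = 0.0016). Col5a1, which nucleates collagen fibrils, measured 524, 482, and 509.8 in WT and 294, 293, and 255 in CsA (log2 fold change -0.85 ± 0.12, adjusted p = 0.00065). Fibrillin-1 (Fbn1), the microfibril protein lost in Marfan syndrome, measured 307, 283, and 311 in WT and 198, 193, and 199.8 in CsA (log2 fold change -0.61 ± 0.13, adjusted p = 0.0044). The groups did not overlap. Efemp2 (fibulin-4), which is needed for elastic fibers, measured 98.7, 106, and 111 in WT and 63.8, 68.8, and 69.8 in CsA (log2 fold change -0.63 ± 0.10, adjusted p = 0.00084), and the crosslinking enzyme Loxl2 measured 46.2, 40.1, and 46.4 in WT and 31.7, 30.9, and 28.1 in CsA (log2 fold change -0.54 ± 0.11, adjusted p = 0.0030). Elastin (Eln) measured 2594, 2441, and 3269 in WT and 1347, 2024, and 1847 in CsA and did not pass (log2 fold change -0.68 ± 0.27, adjusted p = 0.078).

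Proteases and their inhibitors went both ways. Of 25 measured, 5 were higher and 8 lower (20% and 32%, beside 13.9% and 11.4% over all genes tested). The median of -0.02 changes sign with the libraries used. Adam12, a metalloprotease that sheds growth factors, measured 3.57, 4.66, and 3.35 in WT and 25.2, 19.1, and 30.6 in CsA (log2 fold change 2.53 ± 0.33, adjusted p = 0.00054). Mmp19 measured 5.85, 5.60, and 5.05 in WT and 14.3, 10.4, and 15.2 in CsA (log2 fold change 1.18 ± 0.27, adjusted p = 0.0055) and the inhibitor Timp4 30.8, 35.3, and 44.3 in WT and 68.1, 82.2, and 60.7 in CsA (log2 fold change 0.93 ± 0.22, adjusted p = 0.0074). Serpine2, which blocks thrombin and plasminogen activators, measured 739, 845, and 864 in WT and 449, 449, and 415 in CsA (log2 fold change -0.90 ± 0.17, adjusted p = 0.0022). All 4 separated the groups. When 1 library was left out, 1 to 4 members were lower and 3 to 5 higher, with the smallest counts of lower members, 1 each, without WT library 2 and without CsA library 1.

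Genes of TGF-beta and BMP signaling that passed the test were all lower. Of 34 measured genes 13 were lower (38.2%, beside 11.4% over all genes tested) and none higher. The median was -0.35, and 8 were lower without WT library 3. Among ligand-processing proteins, Bmp1 gave -0.52 ± 0.10 and the latency protein Ltbp3 -0.50 ± 0.11. Among receptors, Bmpr1a measured 262, 282, and 259 in WT and 159, 169.5, and 163 in CsA (log2 fold change -0.71 ± 0.13, adjusted p = 0.0022). Among the targets, the inhibitors of differentiation Id2 and Id4, which BMP induces, measured 141, 141, and 132 in WT and 67.6, 82.5, and 79.6 in CsA (log2 fold change -0.85 ± 0.18, adjusted p = 0.0038) and 72.8, 85.0, and 84.1 in WT and 54.1, 51.2, and 42.6 in CsA (log2 fold change -0.71 ± 0.16, adjusted p = 0.0058). Both fell in all 3 CsA libraries below the WT range. The corepressor Ski, which restrains SMAD proteins, gave -0.44 ± 0.11 (adjusted p = 0.0086).

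Receptors and mediators of vessel tone were divided. Of 36 measured, 11 were higher and 11 lower (30.6% each, beside 13.9% and 11.4% over all genes tested). The median was 0.05, and -0.06 after quantile normalization. Of the ligands and enzymes, Agt, the precursor of angiotensin, measured 0.217, 0.393, and 0.547 in WT and 3.53, 5.85, and 8.99 in CsA (log2 fold change 2.83 ± 0.54, adjusted p = 0.0024). Nos3, the endothelial nitric oxide synthase, measured 41.5, 20.1, and 35.2 in WT and 66.0, 84.2, and 69.2 in CsA (log2 fold change 1.22 ± 0.23, adjusted p = 0.0022), and Ece1, which activates endothelin, measured 94.8, 74.9, and 107 in WT and 144, 161, and 175 in CsA (log2 fold change 0.80 ± 0.16, adjusted p = 0.0032). Prostacyclin synthase (Ptgis) measured 751, 887, and 993 in WT and 476, 551, and 557 in CsA (log2 fold change -0.72 ± 0.15, adjusted p = 0.0035). The first 3 of these were above WT in every CsA library and Ptgis was below. Agt is a gene of fat and liver cells and Nos3 of endothelium, and the markers of fat and endothelium moved in the same direction. Of the receptors, the endothelin receptor Ednra at 0.16 ± 0.18 and the angiotensin receptor Agtr1a at 0.99 ± 0.56 did not pass (adjusted p = 0.53 and 0.20). Rgs5, the brake on G protein signaling of arterial smooth muscle and pericytes, measured 1819, 1970.0, and 2406 in WT and 956, 1194, and 774 in CsA (log2 fold change -1.10 ± 0.21, adjusted p = 0.0024), more than 2-fold lower in the group means. Ptgs2 measured 16.7, 26.3, and 42.2 in WT and 13.4, 11.8, and 10.7 in CsA and did not pass (log2 fold change -1.12 ± 0.44, adjusted p = 0.071).

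Most of the changed genes of calcium handling fell. Of 31 measured, 13 were lower and 2 higher (41.9% and 6.5%, beside 11.4% and 13.9% over all genes tested). The median was -0.09, and 8 were lower without WT library 3. Cacna1c, the pore of the L-type channel through which calcium enters smooth muscle, measured 123, 109, and 119 in WT and 82.4, 73.9, and 57.4 in CsA (log2 fold change -0.73 ± 0.13, adjusted p = 0.0018). Its relative Cacna1d measured 27.5, 25.4, and 25.2 in WT and 12.001 to 15.3 in CsA (log2 fold change -0.91 ± 0.18, adjusted p = 0.0026), and the large-conductance potassium channel Kcnma1 measured 52.8, 54.6, and 64.4 in WT and 35.0, 32.8, and 33.3 in CsA (log2 fold change -0.75 ± 0.16, adjusted p = 0.0037). For each, the CsA libraries lay below the WT libraries. The plasma membrane pump Atp2b4 gave -0.63 ± 0.12 and the potassium channel subunit Abcc9 -0.57 ± 0.10 (adjusted p = 0.0019 and 0.0013). Of the inositol trisphosphate receptors, Itpr1, the smooth muscle form, gave -0.46 ± 0.12 (adjusted p = 0.013, and 0.054 and 0.067 without WT library 3 and CsA library 3), whereas Itpr2 gave 1.08 ± 0.23 and Itpr3 1.01 ± 0.21 (adjusted p = 0.0043 and 0.0040). The cardiac store proteins Pln and Casq2 gave 1.68 ± 0.76 and 2.00 ± 0.79 with overlapping groups and did not pass, high in the same libraries as the cardiac markers.

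Acute-phase, complement, and chemokine genes rose. Of 36 in the list 18 were higher (50%, beside 13.9% over all genes tested) and none lower (median 0.83). The complement component C4b measured 90.5, 53.8, and 57.6 in WT and 275, 383, and 678 in CsA (log2 fold change 2.65 ± 0.36, adjusted p = 0.00054). C3, on which all complement pathways converge, gave 2.33 ± 0.41 (adjusted p = 0.0017). C1qb, a chain of the complement starter C1q that macrophages make, measured 19.4, 13.1, and 15.2 in WT and 36.5, 42.7, and 54.9 in CsA (log2 fold change 1.46 ± 0.21, adjusted p = 0.00061). The adhesion molecules of activated endothelium Icam1 and Selp gave 1.43 ± 0.24 and 1.69 ± 0.37 (adjusted p = 0.0011 and 0.0047). Lipocalin-2 (Lcn2), which withholds iron from bacteria, measured 0.769, 0.356, and 0.547 in WT and 6.49, 9.92, and 16.8 in CsA (log2 fold change 3.37 ± 0.47, adjusted p = 0.00054). Stat3, which drives acute-phase genes, at 0.28 ± 0.11 did not pass (adjusted p = 0.082).

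Glucocorticoid-responsive genes were higher in 16 of 22 members and lower in none (median 0.83). The largest change of this list, 3.37, is that of Lcn2, which is in the acute-phase list too, so the lists are not separate results. Tsc22d3, the glucocorticoid-induced leucine zipper, measured 55.1, 59.3, and 45.0 in WT and 125, 110.2, and 89.0 in CsA (log2 fold change 1.01 ± 0.16, adjusted p = 0.00088). Angptl4, an inhibitor of lipoprotein lipase, measured 20.0, 20.8, and 12.5 in WT and 83.4, 42.5, and 83.3 in CsA (log2 fold change 1.91 ± 0.34, adjusted p = 0.0018). The zinc-binding metallothionein Mt2 measured 26.0, 33.4, and 42.4 in WT and 81.7, 115, and 129 in CsA (log2 fold change 1.67 ± 0.31, adjusted p = 0.0021), and Cdkn1a, the cell cycle inhibitor p21, measured 27.1, 29.8, and 32.7 in WT and 78.1, 48.6, and 79.1 in CsA (log2 fold change 1.15 ± 0.19, adjusted p = 0.0010). The groups did not overlap. Per1, which glucocorticoids and the clock both induce, gave -0.21 ± 0.10 and did not pass (adjusted p = 0.14).

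Redox genes moved both ways. Of 24 metallothionein and NRF2 genes 8 were higher and 3 lower (median 0.13). The share of lower members, 12.5%, was close to the 11.4% over all genes tested, and that of higher members was 33.3% beside 13.9%. Gpx3, the secreted glutathione peroxidase, measured 121, 135, and 110.5 in WT and 641, 438, and 980.0 in CsA (log2 fold change 2.41 ± 0.38, adjusted p = 0.00096), and catalase (Cat) measured 88.8, 93.5, and 76.6 in WT and 212, 152, and 254 in CsA (log2 fold change 1.22 ± 0.27, adjusted p = 0.0051). Sod3, the superoxide dismutase of the vascular matrix, measured 994, 935, and 1142 in WT and 558, 544, and 676 in CsA (log2 fold change -0.79 ± 0.13, adjusted p = 0.00098). Gpx3 and Cat were above WT in all the CsA libraries, and Sod3 was below.

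In the unfolded protein and integrated stress response 9 of 26 genes were higher and none lower (median 0.25). The share of higher members was 34.6%, beside 13.9% over all genes tested. Asns, the asparagine synthetase that ATF4 induces, measured 3.96, 3.99, and 2.98 in WT and 22.8, 16.5, and 26.0 in CsA (log2 fold change 2.41 ± 0.27, adjusted p = 0.00038), the largest change of the list. Xbp1, a transcription factor of the unfolded protein response, measured 100.4, 100.1, and 96.3 in WT and 137, 132, and 143 in CsA (log2 fold change 0.47 ± 0.07, adjusted p = 0.00088), and the chaperone partner Sdf2l1 measured 3.33, 2.19, and 3.02 in WT and 7.89, 6.58, and 5.33 in CsA (log2 fold change 1.09 ± 0.25, adjusted p = 0.0059). All 3 CsA libraries were above WT for each. Atf4 itself at -0.31 ± 0.14 did not pass (adjusted p = 0.10).

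Of 26 glycolysis and hypoxia genes 12 were higher and 2 lower (46.2% and 7.7%, beside 13.9% and 11.4% over all genes tested). The median was 0.45. Bnip3, a mitophagy receptor that hypoxia induces, measured 55.8, 59.7, and 40.6 in WT and 149, 136, and 177 in CsA (log2 fold change 1.57 ± 0.27, adjusted p = 0.0013). Ldha measured 170.1, 189, and 160.1 in WT and 326, 275, and 374 in CsA (log2 fold change 0.90 ± 0.19, adjusted p = 0.0038), and Pfkfb3, which makes the activator of phosphofructokinase, measured 78.3, 84.9, and 78.4 in WT and 179, 159.6, and 199.8 in CsA (log2 fold change 1.15 ± 0.26, adjusted p = 0.0053). Hif1a, the oxygen-regulated transcription factor, measured 146, 157, and 166 in WT and 105, 123, and 98.9 in CsA (log2 fold change -0.52 ± 0.12, adjusted p = 0.0054), so that its transcript fell in the libraries in which these enzymes rose. Slc2a1, the common glucose transporter, gave -0.25 ± 0.19 and did not pass (adjusted p = 0.33). Of 27 genes of cholesterol synthesis and uptake 4 were higher and 1 lower (14.8% and 3.7%, beside 13.9% and 11.4% over all genes tested). The efflux pumps Abca1 and Abcg1 were among the higher ones, at 1.08 ± 0.26 and 1.51 ± 0.33 (adjusted p = 0.0074 and 0.0046).

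The circadian genes moved in opposite directions. Arntl, which encodes the activator BMAL1, measured 0.966, 0.768, and 0.710 in WT and 6.31, 3.08, and 6.64 in CsA (log2 fold change 2.09 ± 0.39, adjusted p = 0.0022). Output genes that it activates were lower. Dbp measured 474, 421, and 449 in WT and 256, 293, and 218 in CsA (log2 fold change -0.82 ± 0.18, adjusted p = 0.0046), and Bhlhe41 measured 88.8, 76.2, and 76.8 in WT and 41.4, 52.3, and 41.9 in CsA (log2 fold change -0.83 ± 0.17, adjusted p = 0.0036). CsA library 2 gave the lowest Arntl value of the CsA libraries, and no library overlapped between the groups for these 3 genes. In all, 10 of 22 clock genes were lower and 2 higher (45.5% and 9.1%, beside 11.4% and 13.9% over all genes tested). The median was -0.35, and 6, 5, and 3 were lower without WT library 1, WT library 2, and CsA library 3. Clock transcripts follow the hour of collection, which is not given in the sources used here, so CsA and the hour cannot be told apart.

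Immediate early and heat shock genes, which respond to many stimuli within minutes, varied between libraries. Of 32 immediate early genes 5 were higher and 4 lower (median -0.21), shares close to those over all genes tested, and WT library 3 was the highest WT library for 27 of them. Fos measured 13.3, 18.8, and 55.5 in WT and 30.7, 13.7, and 7.64 in CsA and Egr1 61.9, 71.1, and 109 in WT and 60.3, 48.9, and 42.4 in CsA, and neither passed (adjusted p = 0.36 and 0.11). Klf4, a repressor of the contractile program, measured 45.4, 36.4, and 45.4 in WT and 75.1, 62.0, and 65.7 in CsA (log2 fold change 0.67 ± 0.12, adjusted p = 0.0015). Of 22 heat shock genes 2 were higher and 6 lower (9.1% and 27.3%, beside 13.9% and 11.4% over all genes tested, median -0.24). The small heat shock protein Hspb6, which relaxes smooth muscle when phosphorylated, measured 159, 142, and 175 in WT and 88.1, 101, and 108 in CsA (log2 fold change -0.68 ± 0.14, adjusted p = 0.0040), and the mitochondrial chaperonin Hspd1 measured 132, 134, and 117 in WT and 248, 201, and 217 in CsA (log2 fold change 0.79 ± 0.21, adjusted p = 0.012). Of 35 cell cycle genes 2 were higher and 2 lower (5.7% each), below the shares over all genes tested. Mki67, the proliferation marker, measured 2.62, 2.53, and 2.62 in WT and 2.20, 5.73, and 3.06 in CsA and did not pass (adjusted p = 0.52).

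The same contrast, CsA against WT, was then read in the libraries with Ang-II, which share no sample with the untreated ones. At 2 h 54 genes (0.393%) were higher and 129 (0.939%) lower in CsA, and at 24 h 279 (2.03%) were higher and 487 (3.54%) lower. The 966 genes more than 2-fold higher without Ang-II had a median log2 fold change of 1.39 there, 0.52 at 2 h, and 0.31 at 24 h, and 28 and 27 of them were higher at the threshold at 2 h and 24 h. By value, 862 of them kept a positive sign at 2 h and 689 at 24 h. The 60 genes more than 2-fold lower had medians of -1.10, -0.47, and -0.19, and 9 and 6 of them were lower at the threshold. By value, 55 and 40 of them kept a negative sign. The test of the difference itself found 3 genes (0.0218%) whose CsA effect was higher and 17 (0.124%) whose effect was lower at 2 h than without Ang-II, and this count lay between 0 (without WT library 2) and 47 (without CsA library 1) when an untreated library was left out. At 24 h 622 (4.53%) were higher and 672 (4.89%) lower, and 293 of the 966 were among the genes that differed at 24 h, against 6 at 2 h. The 24 h count of 1294 was 613 without WT library 2 and 763 without WT library 3. These 2 tests share the untreated libraries. Both subtract the untreated effect by which the 966 and the 60 genes were chosen. Some shrinkage of the medians and some of these differences are therefore built in by the choice.

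The interferon GTPases showed no difference past the threshold with Ang-II. Their median was 0.18 at 2 h and 0.07 at 24 h. None of the 21 passed at either time in limma, edgeR, or DESeq2 or had an unadjusted p under 0.05. The effect was lower than the untreated one at 24 h in 14 members, beside 4.89% of all genes tested. This list and those below were chosen with earlier results of these data known, so part of such differences can come from that choice. The libraries at 24 h were uneven, with a summed signal of 230, 235, and 685 in CsA and 225, 322, and 460 in WT from lowest to highest. The highest CsA library there lay above every WT library. Gbp6 had log2 fold changes of 3.53, 0.23, and -0.11 without Ang-II, at 2 h, and at 24 h, and the differences passed the test at both times (adjusted p = 0.044 and 0.0040). Zbp1 had 3.27, 0.19, and -0.37 (adjusted p = 0.040 and 0.0033). The medians of the other interferon-stimulated genes were 0.34 and 0.18, with 17 members that differed at 24 h. Acute-phase genes had medians of 0.27 and -0.26, and 17 members differed at 24 h. Lcn2 was lower in CsA than in WT at 24 h by value (-1.01, adjusted p = 0.20), and the difference from the untreated effect was -4.38 (adjusted p = 0.0034).

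**Figure D4:**
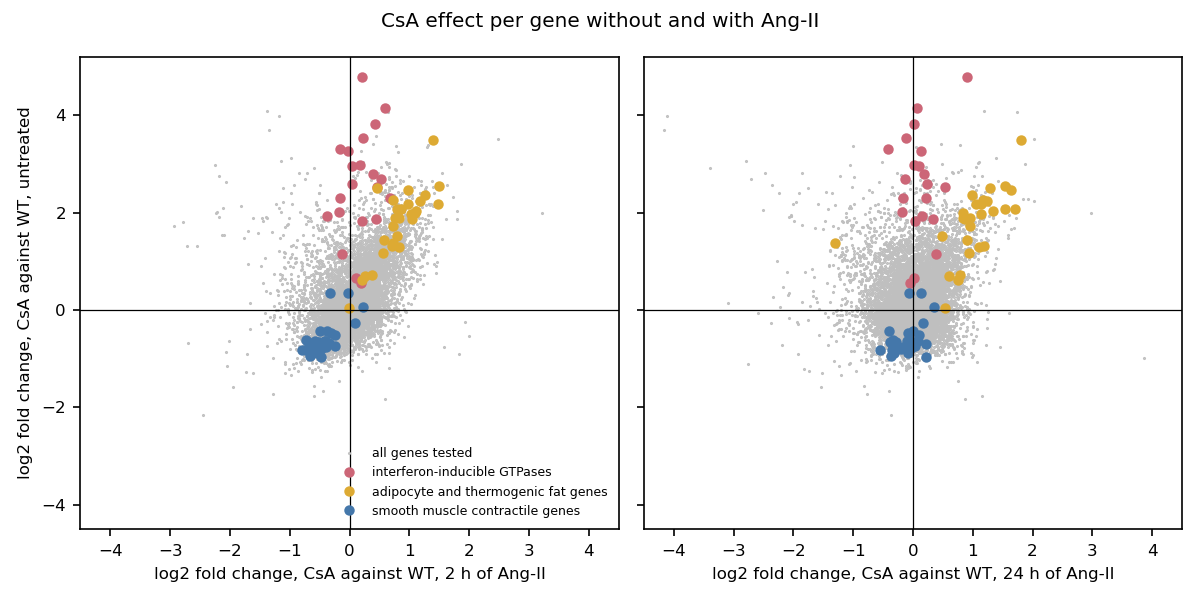
Log2 fold change of CsA against WT without Ang-II (vertical) against the same contrast at 2 h (left) and 24 h (right) of Ang-II, for all genes tested and for 3 lists. Interferon GTPases lie high without Ang-II and near 0 with it, with medians of 2.59, 0.18, and 0.07. Fat genes mostly stay to the right of 0 (medians 1.94, 0.81, and 1.02), and contractile genes have medians of -0.68, -0.49, and -0.08.

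Most fat genes kept a positive sign, 27 of 28 at 2 h and 27 of 28 at 24 h. Their median was 0.81 at 2 h and 1.02 at 24 h, but 0 and 2 of 28 passed at these times in limma. At 2 h 10 had an unadjusted p under 0.05 and 4 passed in DESeq2 and none in edgeR, and at 24 h 23 had an unadjusted p under 0.05, 13 were higher and 1 lower in DESeq2, and 5 were higher in edgeR. Cfd (adipsin), a complement protease of fat, had log2 fold changes of 2.55, 1.49, and 1.54 (adjusted p = 0.0013, 0.094, and 0.048). Oxidative phosphorylation subunits had medians of 0.29 and 0.45. Contractile genes had medians of -0.49 and -0.08, collagens -0.24 and -0.40. Among the single genes that fell, Scx was lower at all 3 stages (-1.30, -1.61, and -1.52, adjusted p = 0.00092, 0.0023, and 0.0026). Loxl2 was lower as well at all 3 (-0.54, -0.68, and -0.79, adjusted p = 0.0030, 0.0092, and 0.0028).

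Other lists changed size or sign with Ang-II. The circadian list had a median of -0.35 without Ang-II and 0.26 at 24 h. The difference passed for 10 of 22 members in the higher direction, beside 4.53% of all genes tested. Arntl went from 2.09 to -1.06 at 24 h (test of the difference, adjusted p = 0.0056) and Hlf from -0.72 to 0.80 (adjusted p = 0.0034). The unfolded protein list went from 0.25 to -0.42, and 13 of its 26 members were lower in CsA at 24 h, beside 3.54% of all genes tested. Immediate early genes had their lowest median at 2 h (-0.93), when 10 of 32 were lower, beside 0.939% of all genes tested. Fos was among them, at -2.71 (adjusted p = 0.026).

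**Figure D5:**
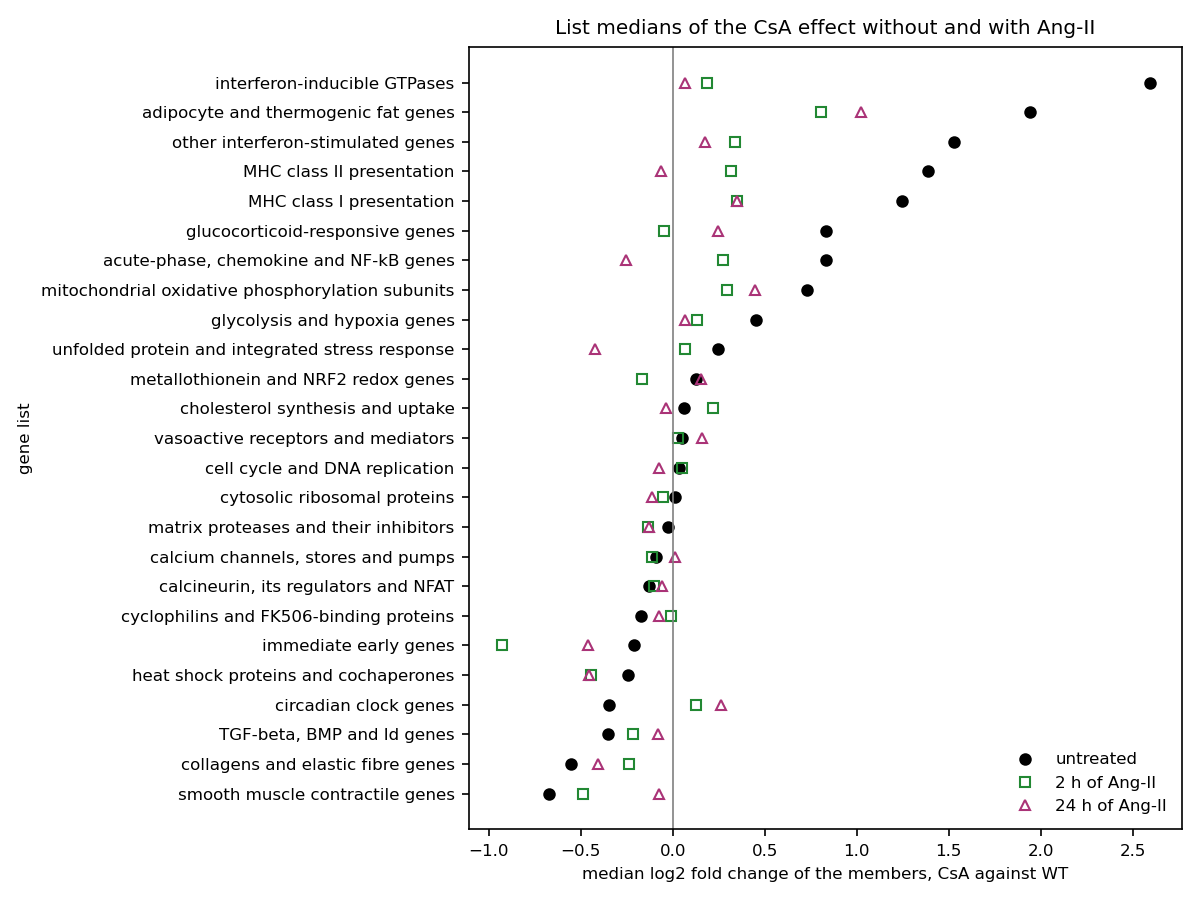
Median log2 fold change of CsA against WT over the measured members of each list, without Ang-II (filled circles), at 2 h (squares), and at 24 h (triangles) of Ang-II. The interferon, MHC, and acute-phase lists lie far right without Ang-II and much nearer to 0 with it, and the clock list changes from -0.35 to 0.26 at 24 h.

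Deletion of Cn in smooth muscle, a genetic loss of the target, was set beside the drug. In the untreated SM-Cn-/- libraries 1 gene (0.00693%) was higher and 1 (0.00693%) lower than in Cn-Ctl in limma, of 14424 tested, and 757 had an unadjusted p under 0.05. These libraries are shallower, and the Cn-Ctl group holds 2 of them, since the authors discarded 1 that deviated in a principal component analysis. Lists are therefore set side by side by their medians. The median log2 fold change in SM-Cn-/- was 0.36 for the interferon GTPases, 1.20 for MHC class II, 0.91 for macrophage markers, 0.94 for fat genes, 0.23 for oxidative phosphorylation, and -0.28 for contractile genes, where CsA gave 2.59, 1.38, 1.23, 1.94, 0.73, and -0.68. Other lists had opposite signs, such as collagens and elastic fiber genes (0.13, and -0.55 in CsA) and immediate early genes (0.07, and -0.21 in CsA). Red blood cell markers, of which none was called in CsA, had a median of 1.25 in SM-Cn-/-. No member of these lists was called in SM-Cn-/-. Ppp3r1, the deleted gene, had a log2 fold change of -0.46 in SM-Cn-/- (adjusted p = 0.98) and -0.11 in CsA, in RNA of the whole wall. The paper checked recombination by PCR on aortic tissue and removed mice in which deletion was not seen. Its immunoblots of aortic extracts showed loss of the B subunit protein. The 2 experiments were sequenced and scaled apart, and the contrast between them was not tested.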

How the data were processed

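Aortas were pooled by 3 per library and sequenced as poly(A) RNA. The authors aligned reads with Bowtie 0.12.7 and assigned them to Ensembl transcripts (GRCm38) with RSEM 1.16. The deposited values are a signal per gene, equal to a read number plus 0.5 divided by a scaled library size; the method of scaling is not given in the sources used here. All the values of the 18 libraries gave back whole reads (100% within a tolerance of 0.05 reads), so depth is known.

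Protein-coding genes with a signal of at least 1 in 2 or more libraries were kept, which removed 3 of 13741 genes of the 15399 listed. The log2(signal + 0.5) values were fitted with limma 3.58.1 (R 4.3.3), with a mean per group over the 18 libraries and an intensity trend in the variance, and p-values were adjusted by Benjamini-Hochberg over the 13738 genes. The SM-Cn-/- and Cn-Ctl groups were fitted within their own table of 22 libraries. A gene was called at an adjusted p under 0.05. The recovered reads were also tested with edgeR 4.0.16 (quasi-likelihood) and DESeq2 1.42.0 as alternatives. Scripts were tested on simulated data.

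Replicates are separate pools, which differed by 14.3 to 49.5 in chi-square per degree of freedom, far beyond counting noise. With 3 libraries per group an exact permutation test of a single gene cannot go below p = 0.1, so p-values come from the fit over all genes.

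The gene lists were chosen with earlier results of these data known, and so were their members. The genes named were members of the calcineurin list, per direction the 15 largest changes among called genes without overlap and with a mean of at least 5 in a group, up to 6 members per list by p, and the followed genes. Promoters were those of the pathway list with the largest share called (marker lists apart), in RefSeq's table. Interferon receptors, Jak3, and list members outside this rule, those that did not pass included, were chosen after their values were seen. Levels are not per length and are not compared between genes. Results on some genes are not reported here.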

Additional observations from a re-analysis of the deposited data

Results flagged for a closer look

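The CsA effect on some genes differed between the untreated aorta and the aorta after Ang-II, by the test of the difference between both effects in limma. At 2 h 20 genes differed and at 24 h 1294 did, and the genes named in the text are given with the effect after Ang-II minus the untreated effect on the log2 scale. At 2 h these were Gbp6 (-3.30), Arntl (-3.26), Zbp1 (-3.08), Ciita (-2.64), Cdkn1a (-1.47), Klf4 (-0.96), and Ifngr2 (0.78).

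At 24 h the values in interferon-inducible GTPases were Tgtp1 (-4.08), Gbp10 (-3.88), Igtp (-3.81), Tgtp2 (-3.72), Gbp6 (-3.64), Iigp1 (-3.14), Ifi47 (-2.87), Gvin1 (-2.82), Irgm2 (-2.61), Gbp2 (-2.47), Gbp7 (-2.08), and Irgm1 (-1.79). In the other interferon-stimulated genes and antigen presentation they were Zbp1 (-3.65), Ciita (-2.69), Oas2 (-2.65), Psmb8 (-2.20), Ctss (-2.19), Nlrc5 (-2.19), Tap1 (-2.16), Irf7 (-2.13), Irf8 (-1.93), H2-Ab1 (-1.71), and Bst2 (-1.65). In acute-phase genes and cell markers they were Lcn2 (-4.38), Hp (-3.29), C3 (-2.44), C4b (-2.36), Adgre1 (-2.02), Selp (-1.85), Mrc1 (-1.68), C1qb (-1.58), Icam1 (-1.55), Kdr (-1.53), Cdh5 (-0.99), and Stat3 (-0.53). In contractile, calcium, vasoactive, and matrix genes they were Adam12 (-3.54), Mmp19 (-1.72), Fbln2 (-1.11), Itpr3 (-1.11), Ece1 (-0.91), Ltbp3 (0.63), Bmpr1a (0.73), Smtn (0.78), Id4 (0.78), Ppp1r12b (0.80), Cacna1c (0.81), Id2 (0.86), Abcc9 (0.89), Kcnma1 (0.99), Serpine2 (1.09), Rgs5 (1.14), Itga8 (1.19), and Cacna1d (1.43). Among genes of other kinds they were Arntl (-3.16), Ccl8 (-3.14), Sdf2l1 (-2.32), Ly6a (-2.25), Asns (-2.23), Gpx3 (-1.90), Mt2 (-1.88), Cdkn1a (-1.67), Angptl4 (-1.60), Jak3 (-1.59), Rcan1 (-1.28), Hspd1 (-1.18), Tsc22d3 (-0.73), Xbp1 (-0.72), Klf4 (-0.68), Fkbp9 (0.52), Ifngr2 (0.57), Sod3 (0.66), Bhlhe41 (0.96), Sema3a (1.02), Casq1 (1.26), Dbp (1.28), Gpsm2 (1.47), Optc (1.47), and Hlf (1.53). 

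Both tests share the untreated libraries, so a library that stands apart there moves the values at both times. Both also subtract the untreated effect by which many of the named genes were chosen, so part of these differences can come from that choice. Groups of 3 libraries were not searched for single outlying samples.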

How the results depend on the processing

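Direction held for the 3464 genes called without Ang-II in so far as a gene was also called under an alternative: 0 changed sign under any of them, and 57.3% to 77.0% of them were called again when 1 library was left out. A gene called in fits that share most or all libraries can hardly change sign, so the count of 0 says little about direction. The total was 3461 and 3410 with a pseudocount of 0.1 and 2, 3464 with no filter, 3142 with a mean of at least 5, 3572 with median-ratio size factors, 3463 in edgeR, 4189 in DESeq2, 4186 with the untreated libraries alone, and 3484 with all listed genes. Leaving out 1 untreated library gave 2039 to 2872 genes called, 1225 to 1643 higher, 814 to 1229 lower, 730 to 973 more than 2-fold higher, and 33 to 79 more than 2-fold lower. Quantile normalization gave 2341 lower genes and 172 more than 2-fold lower, and a pseudocount of 2 gave 35 of the latter.

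The contrasts with Ang-II moved more. At 2 h 183 genes became 68 with quantile normalization and 794 in DESeq2, and at 24 h 766 became 1535 in DESeq2. The 20 genes whose effect differed at 2 h became 1 with quantile normalization, 13 in edgeR, and 323 in DESeq2, and the 1294 at 24 h became 2005 in DESeq2. Without 1 untreated library these 4 counts ranged from 115 to 154, from 575 to 680, from 0 to 47, and from 613 to 1037. The 2 genes of SM-Cn-/- became 5 with a pseudocount of 2 or with quantile normalization and 0 to 3 without 1 library. Which property of each tool sets these counts was not tested.

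Replicate numbers were checked between the untreated WT and CsA libraries only. Samples of the same number did not deviate together there (r = -0.06, -0.23, and 0.09 across genes). The groups with Ang-II were not checked, so whether the numbers mark a batch is not known. With the replicate block the counts were 3153 without Ang-II, 58 at 2 h, 559 at 24 h, 1 and 1073 for the differences at 2 h and 24 h, and 3 for SM-Cn-/-.

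List medians changed sign with quantile normalization for vasoactive genes (-0.0566), cholesterol genes (-0.0346), and cell cycle genes (-0.291). Without 1 library the median ranged from -0.0731 to 0.0678 for matrix proteases, from -0.0046 to 0.193 for cholesterol genes, and from -0.0344 to 0.0952 for cell cycle genes. Among single genes that were not called, the sign changed for Mki67 (-0.0693) and Ppp3cc (-0.193) with quantile normalization, and Rcan1 ranged from -0.275 to 0.0017 without 1 library. Of 2808 values of 166 named genes under alternatives, 2751 kept their direction and side of the threshold, 30 lost the call, and 24 gained it. The cause was not tested. The median standard error of a log2 fold change was 0.15 with 3 libraries per group. A call needs a change of several standard errors, so a gene that was not called can have changed by more than 0.15.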

Other observations

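Transcripts of nerve and blood were uneven between libraries. Of 7 markers of Schwann cells and neurons 1 was higher in CsA (14.3%, beside 13.9% over all genes tested). The sums were 31.6 to 66.5 in WT and 59.3 to 203 in CsA. S100b, a calcium-binding protein of Schwann cells and fat, measured 5.06, 5.53, and 5.37 in WT and 17.1, 12.3, and 11.9 in CsA (log2 fold change 1.28, adjusted p = 0.024 in limma). Tubb3, the tubulin of neurons, measured 0.611, 1.03, and 1.24 in WT and 9.62, 3.73, and 38.0 in CsA, and Snap25, a protein of synaptic vesicle release, 0.138, 0.993, and 0.466 in WT and 5.99, 1.04, and 21.3 in CsA. Both were highest in CsA library 3, and neither passed the test. Hemoglobin genes were highest in WT library 1, where Hbb-bs measured 184, against 37.4 and 19.6 in the other WT libraries and 49.4, 56.7, and 50.8 in CsA. The adjusted p of the 6 markers of red blood cells lay between 0.80 and 0.99 in limma.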
